A study of Mus musculus with 6 samples.

Results

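The interleukin-7 (IL-7) receptor and its JAK-STAT5 pathway were followed through 10 genes: Il7r and Il2rg, the 2 receptor chains; Jak1 and Jak3, the kinases bound to them; Stat5a and Stat5b, the transcription factors the kinases activate; and Cish, Socs1, Socs2 and Socs3, the feedback inhibitors. They were listed by gene symbol, with earlier results of these data known. All 10 were found among 37991 genes in each library and entered the test. RNA-seq was performed on pre-B cells sorted from bone marrow of C57BL/6 mice as B220 high, IgM low and IgD low cells. Wild type mice without the transgene were 4 to 6 weeks old. Premalignant mice carried the Eμ-Myc/+ transgene as heterozygotes and were also 4 to 6 weeks old. Malignant mice carried the same Eμ-Myc/+ transgene and were taken at 10 to 20 weeks, once spontaneous lymphoma was established, so that stage and age cannot be told apart between malignant and younger mice. The transgene places Myc under the immunoglobulin heavy chain enhancer, which is active in B-lineage cells, and each lymphoma arises in a single animal. By the study's methods the gate in the younger mice, which were littermates and female, could hold pro-B as well as pre-B cells, and the lymphoma cells, from either sex, were sorted as B220+ IgM- IgD-. No group received a treatment. Each stage had 2 libraries from individual animals.

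As background, IL-7 is made by stromal cells of the bone marrow and binds a receptor of 2 chains, the IL-7 receptor alpha chain and the common gamma chain. JAK1 and JAK3 on these chains phosphorylate STAT5A and STAT5B, which enter the nucleus and switch on genes for survival and growth, together with the genes for their own inhibitors CISH and the SOCS proteins. In mice the pathway is needed for pro-B and early pre-B cells, and it is turned down as pre-B cells stop dividing and rearrange their light chain genes.

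Libraries held 30031100 to 53453055 counts, with replicate 1 the deeper library at every stage, and 3 counts, taken here as the limit of detection, corresponded to 0.0526 to 0.108 CPM, counts per 1000000. Such limits and the counting intervals below cover counting error only. CPM here use the library size after TMM, the scaling of edgeR. The transgene matched the labels, as Myc stood at 33.8 and 41.4 CPM in wild type, 1164 and 1155 CPM in premalignant and 1732 and 1578 CPM in malignant libraries. The 5 B-lineage markers (Cd79a, Cd79b, Ptprc, Blnk and Cd22) were detected at every stage, with a summed level of 3402 to 4084 CPM in wild type, 2186 to 2294 CPM in premalignant and 2331 to 2408 CPM in malignant libraries. The wild type libraries also held more RNA of genes that mark other cells. The summed level of 7 myeloid markers was 776 to 1703 CPM in wild type against 55.3 to 248 CPM in the other stages, and that of 5 natural killer cell markers was 63.0 to 203 CPM against 3.13 to 10.3 CPM. A gene was called when its log2 fold change was 0.5 or more in either direction and its p-value, adjusted by Benjamini-Hochberg, did not exceed 0.1 in edgeR's quasi-likelihood test on 16683 genes. In bulk RNA, fewer cells of a type and less RNA per cell cannot be told apart.

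Il7r, Jak1 and 3 of the 4 feedback inhibitors stood lower in both Myc-transgenic stages, while Jak3, Socs2 and the STAT5 genes were not called at either. In premalignant vs. wild type cells, 6 of the 10 genes were called, all 6 lower (Il7r, Il2rg, Jak1, Cish, Socs1 and Socs3), where 39.3% of all genes tested were called and 20.3% were called lower. In malignant vs. wild type cells, 5 of the 10 were called, all 5 lower (Il7r, Jak1, Cish, Socs1 and Socs3), where 49.2% of all genes were called and 24.3% were called lower. Between malignant and premalignant cells, 1 of the 10 was called (Il7r, lower), where 6.18% of all genes were called and 2.45% were called lower. None was called higher by edgeR or DESeq2 in any comparison, where edgeR called 3169, 4153 and 623 of the 16683 genes higher. At an unadjusted p under 0.05, 0, 2 and 2 of the 10 were higher in the 3 comparisons. The share called in either direction in malignant vs. wild type cells was thus close to that of all genes. Libraries of the stages did not overlap for 9 of the 10 genes in premalignant vs. wild type cells (77.4% of all genes), of which 8 were lower and 1 higher (41.2% and 36.2% of all genes). They did not overlap for 9 of 10 in malignant vs. wild type cells (71.7%), 7 lower and 2 higher (36.4% and 35.3%), and for 6 of 10 in malignant vs. premalignant cells (51.1%), 2 lower and 4 higher (25.2% and 25.9%). Their median log2 fold change was -0.85 in premalignant and -0.60 in malignant vs. wild type cells and 0.08 in malignant vs. premalignant cells, where the medians over all genes tested were -0.08, -0.02 and 0.04. The B-lineage markers moved in the same comparisons, with 4 of 5 called lower in premalignant vs. wild type cells (median log2 fold change -0.81) and 3 lower and 1 higher in malignant vs. wild type cells (median -0.72). Their part in the results was not tested. For each of the 12 calls the libraries of the 2 stages did not overlap. The same direction within replicate 1 and within replicate 2 follows from this and adds no support. The comparisons share libraries and are not independent of each other.

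**Figure D1:**
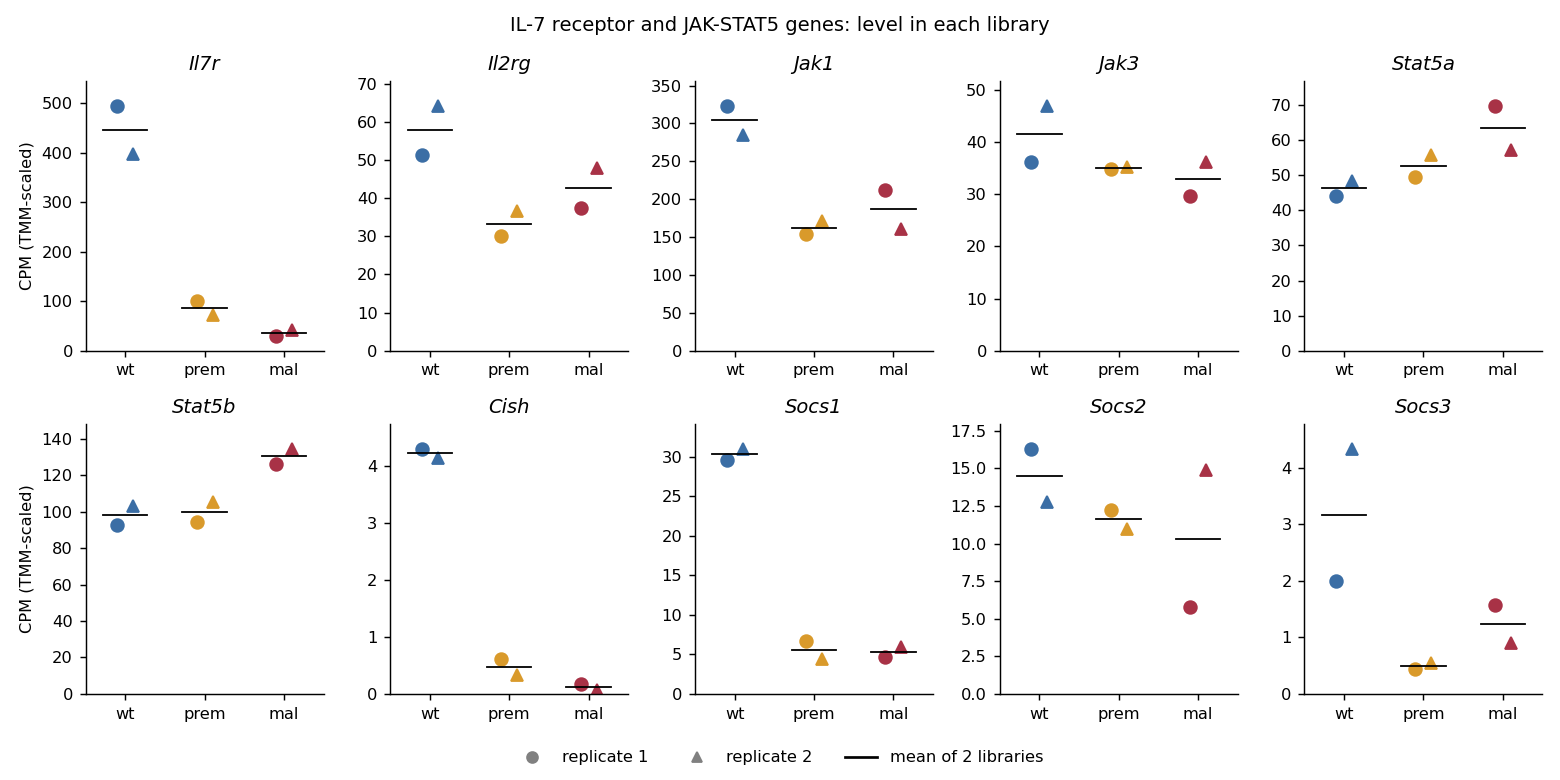
Level of each of the 10 genes in each library, in CPM of the TMM-scaled library size, for the wild type, premalignant and malignant stages (wt, prem, mal). Circles are replicate 1, triangles replicate 2 and lines the mean of 2 libraries. For Il7r, Cish and Socs1 both wild type libraries lie far above the other 4, while for Stat5a and Stat5b the malignant libraries are the highest.

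The promoters are shown because 3 of the genes, the receptor gene Il7r and the inhibitor genes Cish and Socs3, carry the palindrome TTCNNNGAA that STAT proteins bind, and all 3 genes were called lower in both Myc-transgenic stages. Socs1 and Jak1, called lower in both, and Il2rg, called lower in premalignant cells, have no such match. Sequences are from RefSeq on GRCm38.p6, in a window of 250 bases before to 50 bases after the transcription start that was available for 9 of the 10 genes, all but Socs2. The stretches printed below run from -250 to -1 for Il7r (chr15:9529877-9530126, minus strand) and Socs3 (chr11:117969367-117969616, minus strand), and from -5 to 25 for Cish (chr9:107296654-107296683, plus strand). Each is written 5′ to 3′ on the strand of its gene, with motif matches in capitals.
Il7r: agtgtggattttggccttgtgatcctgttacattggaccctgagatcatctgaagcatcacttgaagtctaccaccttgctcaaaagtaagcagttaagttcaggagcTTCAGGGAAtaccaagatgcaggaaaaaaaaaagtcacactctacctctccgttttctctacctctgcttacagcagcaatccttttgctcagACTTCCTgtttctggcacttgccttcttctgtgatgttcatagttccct
Socs3: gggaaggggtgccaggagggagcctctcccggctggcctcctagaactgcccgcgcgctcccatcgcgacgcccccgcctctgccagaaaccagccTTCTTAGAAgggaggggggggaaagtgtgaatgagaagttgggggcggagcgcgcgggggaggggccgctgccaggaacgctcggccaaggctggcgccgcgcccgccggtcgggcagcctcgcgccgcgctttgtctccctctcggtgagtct
Cish: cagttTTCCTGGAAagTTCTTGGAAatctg
Both strands were searched. The STAT match of Il7r begins at -142 and that of Socs3 at -154, while Cish has 2 matches, beginning at 1 and at 12. Over 32851 RefSeq promoters of 300 bases, 8.30% held at least 1 such match and 0.457% held 2 or more. Il7r also holds, at -49, a match to AGGAAGT on the opposite strand, a sequence bound by ETS factors, of which GABP and PU.1 are known regulators of this gene; 9.35% of promoters hold one. The E-box CACGTG, to which MYC binds, was in the window of none of the 9 genes and in 7.15% of all promoters. No match overlaps another. A match describes the letters of this window and was not tested as a binding site.

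Il7r encodes the IL-7 receptor alpha chain, the part of the receptor that is specific to IL-7 and to the related cytokine TSLP. It lies on chromosome 15 (9435916 to 9459631, minus strand, mm9), and its reads overlap no other annotated gene. Il7r was detected at 495 and 397 CPM in wild type replicates 1 and 2, at 100 and 71.5 CPM in the premalignant replicates and at 29.5 and 41.7 CPM in the malignant replicates. The stages did not overlap, and the order from wild type through premalignant to malignant was the same in both replicates. The premalignant level of Il7r was 5.20-fold below wild type (log2 fold change -2.38 ± 0.26, ± SE here and below, adjusted p = 0.00276). In malignant cells it was 12.6-fold lower than in wild type (log2 fold change -3.65 ± 0.27, adjusted p = 0.000656). Both calls held under each of the 16 alternatives tried. Between malignant and premalignant cells the log2 fold change was -1.27 ± 0.25 (adjusted p = 0.0608). This call was lost in 6 alternatives, among them the fit of only these 2 stages (adjusted p = 0.147). It was also lost when premalignant replicate 1 (adjusted p = 0.455), premalignant replicate 2 (adjusted p = 0.228), wild type replicate 1 (adjusted p = 0.141) or wild type replicate 2 (adjusted p = 0.136) was left out. Within replicate 1 the log2 difference of malignant from premalignant was -1.76 and within replicate 2 it was -0.78. Here and below, the replicate numbers are not known to mark pairs of animals.

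A list of genes expressed in pro-B cells, which use the IL-7 receptor, moved with Il7r. The summed level of the 5 genes (Kit, Flt3, Dntt, Igll1 and Vpreb1) was 587 to 628 CPM in wild type, 32.4 to 64.3 CPM in premalignant and 9.50 to 26.3 CPM in malignant libraries. All 5 were called lower in both transgenic stages, where 20.3% and 24.3% of all genes were called lower. In wild type the sum was mostly Dntt, Igll1 and Vpreb1, at means of 242, 196 and 123 CPM. Kit and Flt3 were at means of 15.6 and 30.9 CPM. T cell markers, of cells that also carry the receptor, summed to 37.0 to 65.4 CPM, 13.9 to 31.0 CPM and 1.21 to 9.89 CPM. The leading gene of this sum was Cd4 in wild type, at a mean of 38.3 CPM. In premalignant and malignant cells it was Cd8a, at 12.3 and 3.34 CPM, and not a Cd3 gene at any stage. Of the 5 T cell markers, 3 were called lower in premalignant vs. wild type cells (Cd3e, Cd3d and Cd3g) and 4 in malignant cells, where Cd4 joined them. Cd8a was not called, at 8.54 and 5.63 CPM in wild type, 17.8 and 6.84 CPM in premalignant and 0.230 and 6.45 CPM in malignant libraries. The defining gene Cd3e stood at 1.79 and 0.651 CPM in wild type and at no more than 0.108 CPM in the other libraries. The part of these cells in the fall of Il7r was not tested.

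Il2rg encodes the common gamma chain, which the IL-7 receptor shares with the receptors of IL-2, IL-4, IL-9, IL-15 and IL-21. Il2rg was detected at 51.3 and 64.3 CPM in wild type, 30.1 and 36.5 CPM in premalignant and 37.5 and 47.8 CPM in malignant libraries. Both wild type libraries were the highest, and both premalignant libraries the lowest. The fall in premalignant cells was 1.73-fold (log2 fold change -0.79 ± 0.20, adjusted p = 0.0307). It lost its call without premalignant replicate 1 (adjusted p = 0.208), premalignant replicate 2 (adjusted p = 0.125) or wild type replicate 2 (adjusted p = 0.172). In malignant vs. wild type cells the log2 fold change was -0.44 ± 0.20 (adjusted p = 0.129) and was not called. Under upper-quartile scaling, which moves the median of all genes by -0.17 in this comparison, it was -0.61 (adjusted p = 0.0543), and without malignant replicate 2 it was -0.60 (adjusted p = 0.0468); both would be called. Il2rg is on the X chromosome (98459717 to 98463594, minus strand, mm9), and malignant replicate 1 is the only library from a male by its transcripts, with the X-inactivation RNA Xist at 1.72 CPM and the Y-linked gene Ddx3y at 126 CPM. In the annotation, 30.5% of the exon bases of Il2rg also belong to the predicted gene Gm20489, which had 0 to 1 counts in every library. Reads in the shared bases may have been left out of the count.

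The change was larger for the alpha chain than for the gamma chain in each library pair. As a ratio of levels per length (RPKM, counts per kilobase of exon and 1000000 total counts), Il2rg to Il7r was 0.139 and 0.218 in wild type, 0.405 and 0.687 in premalignant and 1.71 and 1.54 in malignant libraries. The stages did not overlap in this ratio. Its size is uncertain, since 40.8% of the 50-base windows of the Il2rg transcripts also occur in Gm20489 and the level of Il2rg may be understated. Which of the 2 chains was the more abundant at a stage is therefore uncertain, and their order by RPKM below carries this limit.

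Of the 2 kinases, Jak1 stood lower in both transgenic stages and Jak3 was not called in any comparison. Jak1, which binds the alpha chain, was detected at 324 and 284 CPM in wild type, 154 and 171 CPM in premalignant and 213 and 161 CPM in malignant libraries. Both wild type libraries lay above the other 4, and malignant and premalignant libraries overlapped. Jak1 was 1.87-fold lower in premalignant cells (log2 fold change -0.90 ± 0.18, adjusted p = 0.0138), a call lost without premalignant replicate 1 (adjusted p = 0.131) or premalignant replicate 2 (adjusted p = 0.106). It was 1.63-fold lower in malignant cells (log2 fold change -0.70 ± 0.18, adjusted p = 0.0212). That call was lost without wild type replicate 1 (adjusted p = 0.101), and without malignant replicate 2 the log2 fold change was -0.49, just under the threshold. Jak3, which binds the common gamma chain, was detected at 36.1 and 47.0 CPM in wild type, 34.7 and 35.2 CPM in premalignant and 29.7 and 36.1 CPM in malignant libraries. Its log2 fold changes were -0.25 ± 0.19 in premalignant and -0.34 ± 0.19 in malignant vs. wild type cells (adjusted p = 0.351 and 0.197). Under upper-quartile scaling the latter was -0.51 (adjusted p = 0.0777) and would be called. Of the 50-base windows of its transcripts, 11.0% also occur in the overlapping genes Gm9933 and Insl3. Per length, Jak1 stood above Jak3 in every library, with a ratio of 3.29 to 6.64.

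Stat5a and Stat5b encode closely related transcription factors that both relay the IL-7 signal, and neither was called in any comparison. Stat5a was detected at 44.2 and 48.3 CPM in wild type, 49.4 and 55.7 CPM in premalignant and 69.8 and 57.2 CPM in malignant libraries. Stat5b was detected at 92.7 and 103 CPM, 94.3 and 106 CPM, and 126 and 135 CPM in the same order. For both genes the 2 malignant libraries were the highest of the 6, while wild type and premalignant libraries overlapped for Stat5b. In malignant vs. wild type cells the log2 fold change was 0.46 ± 0.16 for Stat5a (adjusted p = 0.0618) and 0.41 ± 0.14 for Stat5b (adjusted p = 0.0494), so that both passed the FDR but not the minimum fold change. Without malignant replicate 2, Stat5a was at 0.62 (adjusted p = 0.0140) and would be called higher. In premalignant vs. wild type cells the values were 0.18 ± 0.16 and 0.027 ± 0.14, and that of Stat5b turned to -0.059 under upper-quartile scaling. The genes lie 8626 bp apart on chromosome 11, and 15.2% of the 50-base windows of Stat5a and 11.1% of those of Stat5b occur in another gene, mostly in each other's transcripts or, for Stat5a, the overlapping Stat3. The share of reads that the counting left out for this reason is not known. Stat5b exceeded Stat5a per length in every library, with a ratio between 2.33 and 3.03 and no order by stage.

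**Figure D2:**
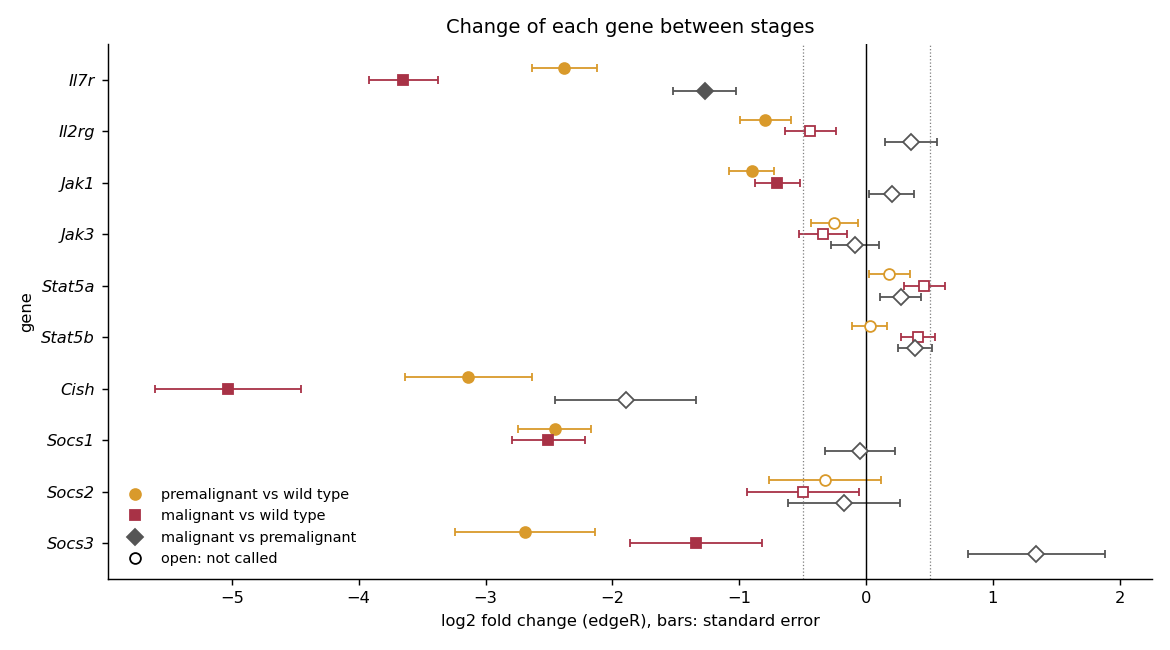
Log2 fold change of each of the 10 genes in the 3 comparisons of stages, from edgeR, with bars of 1 standard error. Filled symbols were called and open ones were not, and dotted lines mark the minimum log2 fold change of 0.5 in either direction. Cish lies farthest to the left in both comparisons with wild type, followed by Socs3, Socs1 and Il7r in premalignant and by Il7r and Socs1 in malignant cells, and the STAT5 genes lie to the right of 0 in malignant cells.

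Cish, Socs1, Socs2 and Socs3 encode inhibitors that bind activated cytokine receptors or JAKs, and their transcription is itself switched on by STAT proteins. Of these 4 genes, 3 were called lower in both transgenic stages, and Socs2 was not. Of all genes, 20.3% were called lower in premalignant and 24.3% in malignant vs. wild type cells, and the share lower in both was not computed. Cish, a classical target of STAT5, stood at 4.29 and 4.13 CPM in wild type, 0.610 and 0.331 CPM in premalignant and 0.167 and 0.0717 CPM in malignant libraries. These values rest on 245 and 146 counts, 32 and 11 counts, and 8 and 2 counts. In malignant replicate 2, Cish was thus under the limit of detection of 3 counts. The 3 stages did not overlap, and the order from wild type through premalignant to malignant was that of Il7r. In the annotation, 11.5% of the exon bases of Cish overlap the predicted genes Gm17040 and Gm17041 on the opposite strand, which had 0 to 2 counts in each library.

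The log2 fold change of Cish was -3.14 ± 0.50 in premalignant (8.79-fold lower, adjusted p = 0.00748) and -5.03 ± 0.57 in malignant vs. wild type cells (adjusted p = 0.00159). Both calls held in all 15 alternatives in which Cish could be tested. Because malignant replicate 2 held only 2 counts, the ratios were also taken from the counts of single libraries. Wild type exceeded malignant 25.7-fold between the libraries numbered replicate 1 (95% interval 12.8 to 60.1) and 57.7-fold between those numbered replicate 2 (15.7 to 481). The shared number is not known to mark a pair. In malignant vs. premalignant cells the log2 fold change of Cish was -1.89 ± 0.56 (adjusted p = 0.141) and was not called. It would be called by DESeq2 (adjusted p = 0.0660), without a filter on low counts (adjusted p = 0.0246) and without malignant replicate 1 (log2 fold change -2.69, adjusted p = 0.0664).

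Socs1, an inhibitor of JAK1 and of other JAKs that is also induced by interferons, was detected at 29.6 and 31.0 CPM in wild type, 6.63 and 4.40 CPM in premalignant and 4.71 and 5.99 CPM in malignant libraries. The 4 transgenic libraries overlapped each other and lay well below both wild type libraries. Socs1 was 5.48-fold lower in premalignant (log2 fold change -2.45 ± 0.29, adjusted p = 0.00330) and 5.68-fold lower in malignant cells (-2.50 ± 0.29, adjusted p = 0.00162), and both calls held in all 16 alternatives. Unlike Il7r, Socs1 did not differ detectably between malignant and premalignant cells, where the log2 fold change was -0.050 ± 0.27 (adjusted p = 0.953). Whether the 2 genes differ from each other in that comparison was not tested.

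Socs3, which is best known for limiting signals of the IL-6 family through STAT3, was low at every stage. It stood at 2.00 and 4.33 CPM in wild type, 0.438 and 0.542 CPM in premalignant and 1.57 and 0.896 CPM in malignant libraries. It was the only one of the inhibitors with both malignant libraries between wild type and premalignant. Socs3 was 6.43-fold lower in premalignant cells (log2 fold change -2.69 ± 0.55, adjusted p = 0.0158), a call lost without premalignant replicate 1 (adjusted p = 0.124) or premalignant replicate 2 (adjusted p = 0.110). In malignant vs. wild type cells the log2 fold change was -1.34 ± 0.52 (adjusted p = 0.0806). Within replicate 1 the log2 difference was -0.34 and within replicate 2 it was -2.21. The call was lost in 7 of 16 alternatives, and wild type replicate 2 weighed most in it, since without that library the log2 fold change was -0.69 (adjusted p = 0.411). Without malignant replicate 2 it was -0.98 (adjusted p = 0.188), and without premalignant replicate 1 or premalignant replicate 2 the adjusted p was 0.137 and 0.138. In malignant vs. premalignant cells the log2 fold change was 1.34 ± 0.54 (adjusted p = 0.242), and without malignant replicate 2 it was 1.65 (adjusted p = 0.0903) and would be called higher. The myeloid markers, of cells in which Socs3 is readily induced, were higher in wild type replicate 2 (1703 CPM) than in wild type replicate 1 (776 CPM), as was Socs3. In the malignant libraries they stood at 55.3 and 113 CPM, the reverse of the order of Socs3. The part of myeloid cells was not tested.

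Socs2, which restrains growth hormone signalling through STAT5B, was detected at 16.3 and 12.7 CPM in wild type, 12.2 and 11.0 CPM in premalignant and 5.77 and 14.9 CPM in malignant libraries. The 2 malignant libraries lay on either side of all premalignant values, as a ratio the widest split between replicates among the 10 genes in malignant cells. Of the 50-base windows of its transcripts, 6.15% also occur in the predicted gene Gm9847. Socs2 was not called, with a log2 fold change of -0.50 ± 0.44 in malignant vs. wild type cells (adjusted p = 0.409). Without malignant replicate 1 this was 0.042, and without malignant replicate 2 it was -1.31 (adjusted p = 0.00553) and would be called lower. Against premalignant cells, the log2 fold change was -0.18 ± 0.44, which became 0.35 without malignant replicate 1 and -1.04 (adjusted p = 0.0341) without malignant replicate 2.

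Levels of different genes were set in order per length, as RPKM. The place of Il2rg in this order is uncertain at every stage, because reads in the bases it shares with Gm20489 may be missing from its level. Il7r stood first in wild type cells, at 156 ± 23.2 RPKM (mean ± SD, n = 2 here and below). Jak1 followed at 47.2 ± 3.99 RPKM, then Socs1 at 27.9 ± 1.12 RPKM and Il2rg at 27.2 ± 4.51 RPKM, whose libraries overlapped. Stat5b was next at 19.9 ± 1.68 RPKM, and Jak3 and Stat5a overlapped at 8.72 ± 1.67 and 7.28 ± 0.512 RPKM. Socs2, Socs3 and Cish were under 2 RPKM in each wild type library.

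The order changed at the top in the transgenic stages. In premalignant cells Il7r (26.0 ± 6.51 RPKM) and Jak1 (21.8 ± 1.27 RPKM) overlapped, with Stat5b next at 17.5 ± 1.12 RPKM. In malignant cells Jak1 (23.6 ± 4.12 RPKM) and Stat5b (21.6 ± 1.44 RPKM) overlapped in first place and Il2rg followed at 16.4 ± 3.12 RPKM. Il7r came next at 10.2 ± 2.67 RPKM, overlapping Stat5a at 8.14 ± 0.977 RPKM. Socs1, beside Il2rg in wild type cells, stood below Jak3 in both transgenic stages, at 4.40 ± 1.32 RPKM in premalignant and 4.02 ± 0.762 RPKM in malignant cells. Cish was last at every stage, falling from 0.737 ± 0.0144 RPKM in wild type to 0.0169 ± 0.00929 RPKM in malignant cells. The latter mean includes malignant replicate 2, in which Cish was under the limit of detection.

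**Figure D3:**
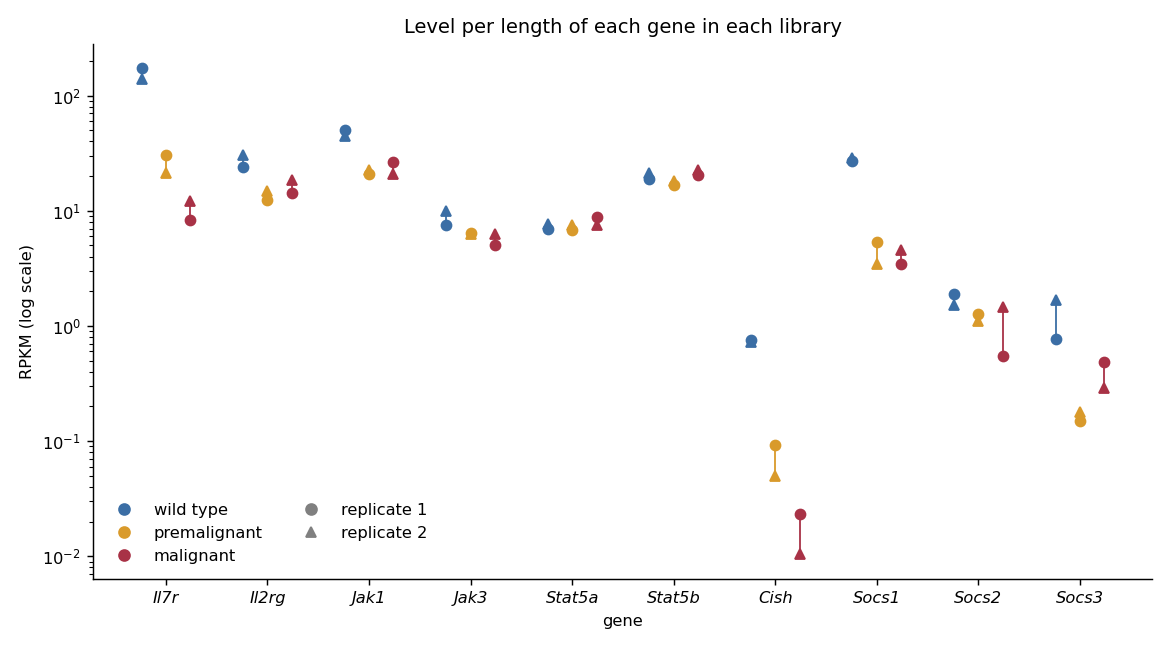
Level per length of each of the 10 genes in each library, in RPKM on a log axis. Circles are replicate 1 and triangles replicate 2, joined within a stage. Il7r is the highest gene in wild type cells at a mean of 156 RPKM and lies near Stat5a in malignant cells, and Cish is the lowest gene at every stage.

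Other genes of the pathway were counted by list. Among 9 ligands and related receptors, 7 could be tested. The ligand genes Il7 and Tslp could not, since Il7 stood at no more than 0.158 CPM and Tslp at no more than 0.0526 CPM in any library; IL-7 is made by stromal and not by B cells. Of the 7, 5 were called lower and 0 higher in premalignant vs. wild type cells (39.3% of all genes called), and 5 lower and 1 higher in malignant vs. wild type (49.2%). Il2ra, the alpha chain of the IL-2 receptor, was at 212 and 225 CPM in wild type, 13.1 and 9.61 CPM in premalignant and 5.06 and 7.31 CPM in malignant libraries (malignant vs. wild type log2 fold change -5.15 ± 0.27, adjusted p = 0.000526). Il2rb, the beta chain of the IL-2 and IL-15 receptors, fell with a log2 fold change of -5.41 ± 0.83 (adjusted p = 0.00400). Its wild type libraries stood at 77.4 and 31.1 CPM, in the same order as the summed markers of natural killer cells (203 and 63.0 CPM), which carry this receptor. The part of those cells was not tested.

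The receptor chain for TSLP and that for IL-21 were also lower in both transgenic stages. Crlf2, which pairs with the IL-7 receptor alpha chain to bind TSLP, was lower in malignant cells with a log2 fold change of -1.72 ± 0.39 (adjusted p = 0.0145). Il21r was lower with -4.24 ± 0.32 (adjusted p = 0.000679), and it was also called lower in malignant vs. premalignant cells (-1.50 ± 0.29, adjusted p = 0.0599). The gene called higher was Il15ra, named after its values were seen, at 8.73 and 11.8 CPM in wild type, 7.03 and 8.95 CPM in premalignant and 15.4 and 22.9 CPM in malignant libraries (malignant vs. wild type 0.90 ± 0.30, adjusted p = 0.0543). It was higher than in premalignant cells as well (1.26 ± 0.31, adjusted p = 0.0965). Neither Il21r nor Il15ra was called in malignant vs. premalignant cells when any one of the wild type or premalignant libraries was left out, with 0 calls in the list.

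Most of the other JAK and STAT genes also stood lower. Of 6 tested, 5 were called lower and 0 higher in both premalignant vs. wild type (20.3% of all genes lower) and malignant vs. wild type cells (24.3%), with a median log2 fold change of -1.06 and -1.09. In premalignant vs. wild type cells, 3 were called without premalignant replicate 1 and 2 without premalignant replicate 2. Stat2, which relays interferon signals, had a log2 fold change of -1.54 ± 0.16 (adjusted p = 0.00126) in malignant vs. wild type cells, and Stat3, which relays IL-6 signals, had -1.27 ± 0.19 (adjusted p = 0.00371). Jak2, the kinase of many hormone and growth factor receptors, had -0.90 ± 0.18 (adjusted p = 0.00879). Stat4, the mediator of IL-12 signals, went from 25.0 and 17.1 CPM in wild type to 2.46 and 1.78 CPM in premalignant and 0.126 and 0.538 CPM in malignant libraries (malignant vs. wild type -6.08 ± 0.70, adjusted p = 0.00163). Stat6, the mediator of IL-4 signals, was not called, with -0.30 ± 0.24 in the same comparison. Of the STAT genes given here, Stat5a, Stat5b and Stat6 were not called in any comparison. The difference between them and the others was not tested.

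Inhibitors outside the 4 feedback genes showed no shared direction. Of 14 tested, 4 were called lower and 0 higher in premalignant vs. wild type cells, and 3 lower and 2 higher in malignant vs. wild type cells, fewer in each than the 39.3% and 49.2% called among all genes, with a median log2 fold change of 0.01 and 0.09. Only 1 to 2 were called in premalignant vs. wild type when any one of the premalignant or wild type libraries was left out. In malignant vs. wild type cells Socs5 (-1.57 ± 0.33, adjusted p = 0.0117), Pias3, an inhibitor of STAT3 (-1.32 ± 0.27, adjusted p = 0.00997), and Sh2b3, the adaptor LNK that restrains JAK signalling (-0.87 ± 0.17, adjusted p = 0.00895), were lower. Socs4 was higher (0.94 ± 0.27, adjusted p = 0.0325).

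Genes that STAT5 is known to switch on, or in the case of Bcl6 to repress, moved in both directions, with more called lower than higher against wild type. Their median log2 fold change was -1.63 in premalignant and -1.01 in malignant vs. wild type cells. Of 10 tested, 6 were called lower and 1 higher in premalignant vs. wild type cells (39.3% of all genes called, 20.3% lower), and 5 lower and 2 higher in malignant vs. wild type cells (49.2% and 24.3%). Without premalignant replicate 1, 4 were called in premalignant vs. wild type cells. Bcl2l1, which encodes the survival protein BCL-XL, was at 169 and 177 CPM in wild type, 20.1 and 20.2 CPM in premalignant and 9.71 and 10.6 CPM in malignant libraries. Its log2 fold change was -4.09 ± 0.15 in malignant vs. wild type cells (adjusted p = 0.000338) and -0.99 ± 0.13 in malignant vs. premalignant cells (adjusted p = 0.0259). The kinase gene Pim2 (-2.38 ± 0.14, adjusted p = 0.000540) and the cyclin gene Ccnd3 (-1.94 ± 0.48, adjusted p = 0.0192) were lower in malignant vs. wild type cells. So was Bcl6 (-3.63 ± 0.85, adjusted p = 0.0163), a repressor that pre-B cells induce when IL-7 signals wane. The counts and medians above include Bcl6, although STAT5 represses it and switches on the other genes of the list. The malignant libraries lay far apart for Ccnd3 (74.4 and 217 CPM) and Bcl6 (0.481 and 3.51 CPM), but below both wild type libraries.

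Of the targets that STAT5 switches on, some were called higher in a comparison, and they are named after their values were seen. Pim3, a kinase gene, was higher in both transgenic stages, with log2 fold changes of 1.00 ± 0.21 in premalignant (adjusted p = 0.0161) and 1.20 ± 0.21 in malignant vs. wild type cells (adjusted p = 0.00601). Bcl2, the survival gene, was at 15.0 and 10.5 CPM in wild type, 4.36 and 3.22 CPM in premalignant and 50.2 and 16.0 CPM in malignant libraries. It was called lower in premalignant vs. wild type cells (-1.74 ± 0.55, adjusted p = 0.0544) and higher in malignant vs. premalignant cells (3.12 ± 0.57, adjusted p = 0.0519), with the 2 malignant libraries far apart on the CPM scale. Ccnd2, which encodes cyclin D2, was at 54.1 and 51.1 CPM in wild type, 11.8 and 11.3 CPM in premalignant and 37.7 and 86.3 CPM in malignant libraries. It was called lower in premalignant vs. wild type cells (-2.19 ± 0.38, adjusted p = 0.00946) and higher in malignant vs. premalignant cells (2.43 ± 0.38, adjusted p = 0.0362). The malignant libraries lay on either side of wild type, where the log2 fold change was 0.24 ± 0.36 (adjusted p = 0.634). In malignant vs. premalignant cells, the 3 calls among these targets became 0 without premalignant replicate 1 or premalignant replicate 2, 1 without wild type replicate 1 or wild type replicate 2, and 6 without malignant replicate 2.

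**Figure D4:**
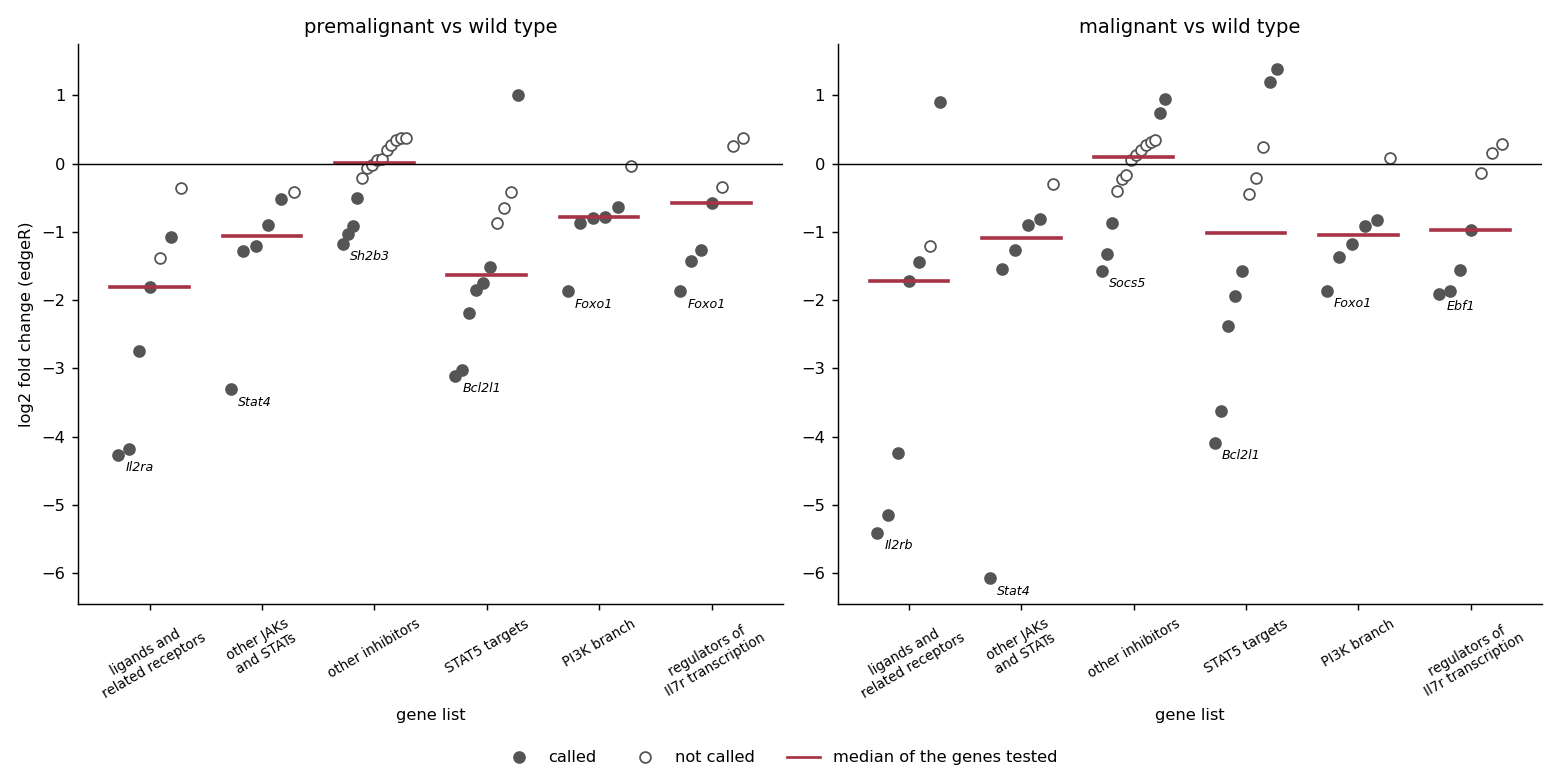
Log2 fold change from edgeR of each tested gene of 6 lists of the wider pathway, in premalignant (left) and malignant (right) vs. wild type cells. Filled points were called, open points were not, and red lines are the median of the list; the lowest gene of each list is named. The other JAKs and STATs lie below 0 in both panels, and the other inhibitors lie around 0.

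The IL-7 receptor also signals through PI3K and AKT, which hold the FOXO factors out of the nucleus. Of 6 genes tested in this branch, 5 were called lower and 0 higher in both transgenic stages vs. wild type, where 20.3% and 24.3% of all genes were called lower. Between malignant and premalignant cells edgeR called 0 of them, while 2 were lower at an unadjusted p under 0.05 and DESeq2 called 1 lower. Without either premalignant library only 1 was called in premalignant vs. wild type cells. The catalytic and regulatory subunit genes Pik3cd and Pik3r1 had log2 fold changes of -1.36 ± 0.17 (adjusted p = 0.00201) and -1.18 ± 0.15 (adjusted p = 0.00234) in malignant vs. wild type cells, and Foxo3 had -0.91 ± 0.17 (adjusted p = 0.00711). Foxo1 was at 311 and 289 CPM in wild type, 84.2 and 79.6 CPM in premalignant and 76.9 and 87.7 CPM in malignant libraries (-1.86 ± 0.14, adjusted p = 0.000640).

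Foxo1 is also one of the known activators of Il7r transcription. Of 7 such regulators tested, 4 were called lower and 0 higher in both transgenic stages vs. wild type, where 39.3% and 49.2% of all genes were called and 20.3% and 24.3% were called lower. The number called in malignant cells was thus close to the background. Between malignant and premalignant cells edgeR called 0 of them, while 1 was lower at an unadjusted p under 0.05 and DESeq2 called 1 lower. Without either premalignant library, or without wild type replicate 2, only 2 were called in premalignant vs. wild type cells. Besides Foxo1, these were in malignant vs. wild type cells the B-lineage factors Ebf1 (-1.91 ± 0.17, adjusted p = 0.000880) and Pax5 (-0.97 ± 0.20, adjusted p = 0.0115) and the factor Runx1 (-1.56 ± 0.34, adjusted p = 0.0127). The ETS factor genes Sfpi1, which encodes PU.1, and Gabpa were not called in either comparison, nor was Gfi1, which represses Il7r. Sfpi1 stood at 66.9 and 83.5 CPM in wild type and 67.0 and 69.3 CPM in malignant libraries, and Gabpa at 140 and 109 CPM and 148 and 155 CPM.

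**Figure D5:**
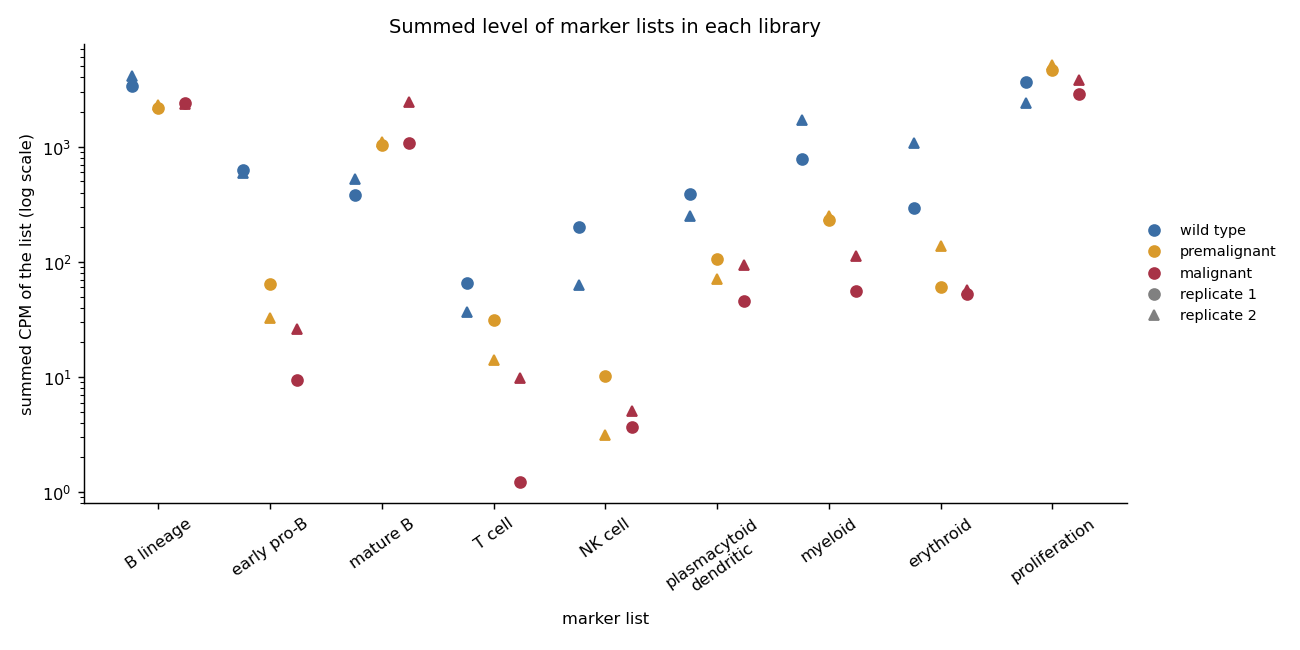
Summed CPM of 9 lists of marker genes in each library, on a log axis. Circles are replicate 1 and triangles replicate 2. All lists but the mature B and proliferation lists are highest in both wild type libraries, among them the natural killer (NK) list. The B-lineage list lies at 3402 to 4084 CPM in wild type and 2186 to 2408 CPM in the other 4.

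The remaining marker lists moved with the stages as follows, and their part in the results was not tested. Erythroid markers summed to 293 to 1080 CPM in wild type, 59.9 to 138 CPM in premalignant and 52.3 to 57.5 CPM in malignant libraries. Plasmacytoid dendritic cell markers summed to 251 to 389 CPM, 70.6 to 105 CPM and 45.3 to 94.3 CPM. The mature B-cell markers, of which Ighd had no row, summed to 383 to 520 CPM, 1030 to 1110 CPM and 1085 to 2425 CPM, but the rise of the sum was mostly that of Cd74, which was called higher in both transgenic stages. Fcer2a and Cr2 were called lower in both, and Ms4a1 was called lower in malignant cells. Proliferation markers summed to 2403 to 3680 CPM in wild type, 4680 to 5143 CPM in premalignant and 2844 to 3814 CPM in malignant libraries. No gene of these lists was at 3 counts or fewer in all 6 libraries.

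The genes whose pattern over the 6 libraries was most like that of Il7r were Amigo1, Cpm, Ypel3, 2410066E13Rik and Bcr, by the root mean square difference of log2 CPM centred on each gene's own mean (0.195, 0.201, 0.209, 0.261 and 0.268 on the log2 scale, among 8882 genes with a mean of at least 10 CPM). Cpm stood at a mean of 384 CPM in wild type, 73.4 CPM in premalignant and 34.4 CPM in malignant cells, close to the 446, 85.7 and 35.6 CPM of Il7r. Most like Cish, among 8883 genes, were Rag1, Cacna1e, Atp1b1, Parp8 and Ddah2, with differences of 0.323 to 0.436. For this measure a prior of 2 counts, scaled to library size, was added before the logarithm. It narrows the fall of a gene with few counts such as Cish, at 8 and 2 counts in the malignant libraries. Without it, Cish stood at a mean of 4.21 CPM in wild type, 0.471 CPM in premalignant and 0.120 CPM in malignant cells. Rag1, which encodes part of the recombinase of the antigen receptor genes, stood at a mean of 1871 CPM in wild type, 307 CPM in premalignant and 105 CPM in malignant cells. These likenesses are descriptions over 6 libraries that share their stages.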

How the data were processed

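RNA-seq counts of 6 libraries of polyadenylated RNA from sorted pre-B cells were used, 2 for each stage as the labels give it. Per the labels and the study's methods, libraries were made with an Illumina kit that does not keep the strand, reads of 50 bases were processed with CASAVA 1.8.2 and aligned with TopHat and Bowtie, and reads on each Ensembl gene were counted by the authors with HTSeq; these raw counts were deposited. The genome build in the submitters' processing notes is mm9, and the HTSeq options are not given in the sources used here. The authors' tables from DESeq hold means, fold changes and p-values of their own comparisons and were not used.

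Symbols, positions and exon lengths came from GENCODE vM1 on mm9, which gave a symbol to 37205 of 37991 identifiers. All 6 libraries entered 1 quasi-likelihood fit in edgeR 4.0.16 under R 4.3.3, with stage as the term, TMM scaling and edgeR's default filter, which left 16683 genes over which p-values were adjusted. Standard errors are the log2 fold change over the square root of F. TMM assumes that most genes do not change, and values therefore say nothing of the RNA content of a cell. With 2 libraries a stage, an exact two-sided permutation test of a single gene cannot give a p below 0.333, and calls rest on the spread shared between genes. Total counts were 30031100 to 53453055, and replicates differed by more than counting noise. Files held 0 columns of other samples. RPKM used total counts. The fits were tested on simulated data.

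The 10 genes, the lists and the tests were chosen with earlier results of these data known. From the lists, 2 genes are not reported here and were left out of the counts and sums. Named genes of the lists are those called in malignant vs. wild type with the 4 largest absolute log2 fold changes, and genes not tested. Others are said to be named after their values were seen, or are given as not called. For likeness, the 5 nearest genes with a mean of at least 10 CPM are named. Alternatives were other scalings (upper quartile, RLE), DESeq2 1.42.0, other filters and thresholds, a block on the replicate number, fits of 2 stages and leaving out each library.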

Additional observations from a re-analysis of the deposited data

How the results depend on the processing

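In premalignant vs. wild type cells, the 6 genes called became 3 to 6 when 1 library was left out, with 3 without either premalignant library, and kept within 1.5 times in the other 14 alternatives. Among all genes, fewer than the 6563 of the main fit were then called, with 1 library of that stage remaining. Why fewer were called was not tested. In malignant vs. wild type the 5 called ranged from 4 to 7. In malignant vs. premalignant the 1 called became 2 with DESeq2, 2 without a filter on low counts, 0 at an FDR of 0.05, 0 in a fit of only these stages, and 0 to 3 when 1 library was left out; all genes called ranged from 0 to 3805 around 1031. Of 159 alternative values of single genes in each comparison, 146, 140 and 143 kept their direction and side of the threshold in the 3 comparisons in that order. Stat5b in premalignant vs. wild type went to -0.037 with at least 10 counts in every library and -0.059 under upper-quartile scaling. With 1 library left out, it ranged from -0.047 to 0.11, Socs2 in malignant vs. wild type from -1.31 to 0.042, and in malignant vs. premalignant Jak1 from -0.013 to 0.35, Jak3 from -0.27 to 0.044, Socs1 from -0.31 to 0.28 and Socs2 from -1.04 to 0.35. The cause was not tested. Upper-quartile scaling moved the median of all genes by -0.08, -0.17 and -0.08 in the 3 comparisons, and in malignant vs. wild type it gave 3456 genes higher and 4746 lower in place of 4153 and 4059. Cish could not be tested with at least 10 counts in every library. With TMM-scaled sizes, 23 of 30 RPKM values moved by less than 1 SD.

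Replicate numbers are shared by the stages, but nothing says that they mark a common litter or day. Deviations from the stage means correlated at 0.509, 0.186 and 0.257 between replicate 1 libraries over 16683 genes, with only 2 pairs per comparison, so the numbers were not taken as pairs. With the replicate number as a block, 6, 4 and 1 of the 10 genes were called in the 3 comparisons in that order, and the one call of these 10 genes that changed was Socs3 in malignant vs. wild type (-1.27, adjusted p = 0.112).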
